A study of Mus musculus with 12 samples.

Results

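Filaggrin-2 and 9 enzymes that act on profilaggrin or on filaggrin were read across the epidermis and full-thickness skin of newborn mice with and without keratin 1. The 10 genes are Flg2, Casp14, Asprv1, Prss8, St14, Furin, Capn1, Blmh, Padi1 and Padi3, named by symbol. They were chosen with earlier results of these data known, and stand against 19053 genes with a probe of 1 symbol on the array. They are read by 18 of its 45281 probes, and 16 of these probes passed the detection filter (detection p under 0.05 on at least 3 arrays), so all 10 genes were among the 12099 tested. The gene of filaggrin itself was not analysed here.

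Profilaggrin is a large precursor that keratinocytes of the granular layer store in keratohyalin granules. When these cells turn into corneocytes, phosphatases and proteases release filaggrin monomers, which bundle keratin filaments. Peptidylarginine deiminases then convert arginine of filaggrin to citrulline, which loosens it from keratin, and cytosolic proteases break it down to free amino acids that hold water in the stratum corneum. These are steps of protein processing, and the arrays measure only the RNA of the proteins involved.

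Each of 4 groups holds 3 arrays, all of C57BL/6 mice at postnatal day 0. Epidermis was taken from Krt1-/- and from Krt1+/+ mice, and so was full-thickness skin. Full-thickness skin holds dermis as well as epidermis, and in such bulk tissue fewer cells of a type and less RNA per cell cannot be told apart. Nothing in the labels ties the replicates to different animals, so the p-values cover the spread between samples alone, and that spread may be technical. With so few arrays in a group, precision is limited. The labels do not say how the Krt1 allele was made.

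The arrays had median raw intensities of 93.31 to 105.1 units, and 37.9% to 44% of probes were detected. Probe ILMN_2651772 of Krt1 read 183 to 319 units in Krt1-/- skin, against 1794 to 5915 in Krt1+/+ skin, and was 26.1-fold lower (limma, adjusted p = 8.1e-05). In epidermis it read 987 to 2921 units on the arrays labelled Krt1-/-, against 1417 to 5954 on the Krt1+/+ arrays, and the difference did not pass (log2 −1.08, adjusted p = 0.18). This probe does not check the labels in epidermis, on which every direction given there depends. The first 6 data columns hold Krt1-/- skin and Krt1+/+ epidermis and the last 6 hold Krt1-/- epidermis and Krt1+/+ skin. Over the 16240 probes that no array detected, the arrays' deviations from each probe's mean correlated between groups of the same 6 columns at a mean r of −0.0369 and −0.0182, and between groups of different columns at −0.156 to −0.13. Within a tissue, genotype and column set cannot be told apart. The average of the genotype differences in epidermis and in skin cancels an additive offset between the column sets, and it is given beside them. Of the markers for other cell types, all 6 of dermal fibroblasts were higher in skin than in epidermis in both genotypes. Of all genes 19.8% were higher in skin in Krt1+/+ mice and 19.3% in Krt1-/- mice. The fibroblast markers had summed raw intensities of 19270 to 30655 units in Krt1-/- skin and 24745 to 37908 in Krt1+/+ skin. In epidermis the sums were 4737 to 5849 units in Krt1-/- and 5402 to 6490 in Krt1+/+.

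Promoters are shown for 4 genes with different patterns in the data: Blmh and Asprv1, whose signals were higher in Krt1-/- tissue, Padi1, whose signal was lower, and Flg2, the filaggrin family member. The RefSeq promoters used here cover 8 of the 10 genes, all but Prss8 and St14, as 250 bases before and 50 after the transcription start in build GRCm38.p6. Capitals mark CCACCC, a box known to be bound by Krüppel-like factors, and TGANTCA, the letters of an AP-1 type motif, or their reverse complements, each searched on both strands.
Blmh, chr11:76945406-76945705, plus strand: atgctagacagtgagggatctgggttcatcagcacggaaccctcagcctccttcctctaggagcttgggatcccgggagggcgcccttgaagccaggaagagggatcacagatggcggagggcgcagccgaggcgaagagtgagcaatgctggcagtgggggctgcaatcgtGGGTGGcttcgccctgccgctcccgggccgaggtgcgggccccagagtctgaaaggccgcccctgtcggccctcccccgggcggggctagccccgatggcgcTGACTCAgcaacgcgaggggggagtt
Asprv1, chr6:86627924-86628223, plus strand: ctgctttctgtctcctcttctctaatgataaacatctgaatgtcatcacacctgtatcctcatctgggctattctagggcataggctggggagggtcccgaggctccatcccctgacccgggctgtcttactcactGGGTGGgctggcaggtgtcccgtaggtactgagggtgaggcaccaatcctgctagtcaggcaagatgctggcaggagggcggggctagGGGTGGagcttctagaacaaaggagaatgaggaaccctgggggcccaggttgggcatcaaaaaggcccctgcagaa
Padi1, chr4:140845729-140846028, minus strand: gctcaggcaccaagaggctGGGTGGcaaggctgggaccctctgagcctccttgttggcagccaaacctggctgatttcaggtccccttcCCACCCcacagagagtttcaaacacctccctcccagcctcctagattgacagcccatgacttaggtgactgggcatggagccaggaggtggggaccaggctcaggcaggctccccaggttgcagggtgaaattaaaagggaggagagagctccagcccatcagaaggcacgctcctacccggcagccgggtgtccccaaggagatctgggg
Flg2, chr3:93197023-93197322, plus strand: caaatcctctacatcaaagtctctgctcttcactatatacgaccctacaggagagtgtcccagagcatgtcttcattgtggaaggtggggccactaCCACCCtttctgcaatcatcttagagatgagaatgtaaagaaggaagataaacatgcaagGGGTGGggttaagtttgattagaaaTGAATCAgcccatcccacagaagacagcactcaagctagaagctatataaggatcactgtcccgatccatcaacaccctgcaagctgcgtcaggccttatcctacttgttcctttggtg

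TGANTCA occurs once in the window of Blmh and once in that of Flg2, and in 7.81% of 32851 RefSeq promoter windows of this length. It is not among the letters of the other printed windows. CCACCC occurs in all 4 printed windows and in 31.5% of all windows, and the marked copies do not overlap TGANTCA. AACCNGTT, the letters of a grainyhead type motif, occurs in 0 of the 4 windows and in 2.09% of all. These matches describe letters and were not tested as sites.

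Of the 10 genes, Blmh and Furin rose in Krt1-/- epidermis, Flg2 and Padi1 fell, and 6 did not pass. A gene passed at a limma adjusted p under 0.05 over the 12099 genes, and 31.8% of all genes passed in that comparison (15% higher and 16.8% lower). In Krt1-/- skin Blmh, Capn1 and Asprv1 rose, none of the 10 fell and 7 did not pass, against 30.7% of all genes (14.4% higher and 16.2% lower). On the average of both tissues Blmh, Asprv1 and Furin rose, Padi1 fell and 6 did not pass, against 24.2% of all genes (10.9% higher and 13.2% lower). Read probe by probe, 32.1% of all kept probes passed in epidermis, 28% in skin and 20.1% on the average. On the normalized scale the arrays of both genotypes did not overlap for 5 of the 10 genes in epidermis and for 5 in skin, against 45.5% and 43.4% of all genes. The median difference of the 10 genes was −0.08 on the log2 scale in epidermis, 0.49 in skin and 0.2 on average, beside 0, −0.07 and −0.05 over all genes. In a list of 10, these counts of 4, 3 and 4 lie close to the background, and nothing about the set is read from them. Without Krt1-/- epidermis replicate 1 or 3, 2 of the 10 genes passed in epidermis instead of 4. Blmh was the only one of the 10 that passed in each tissue and on average.

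**Figure D1:**
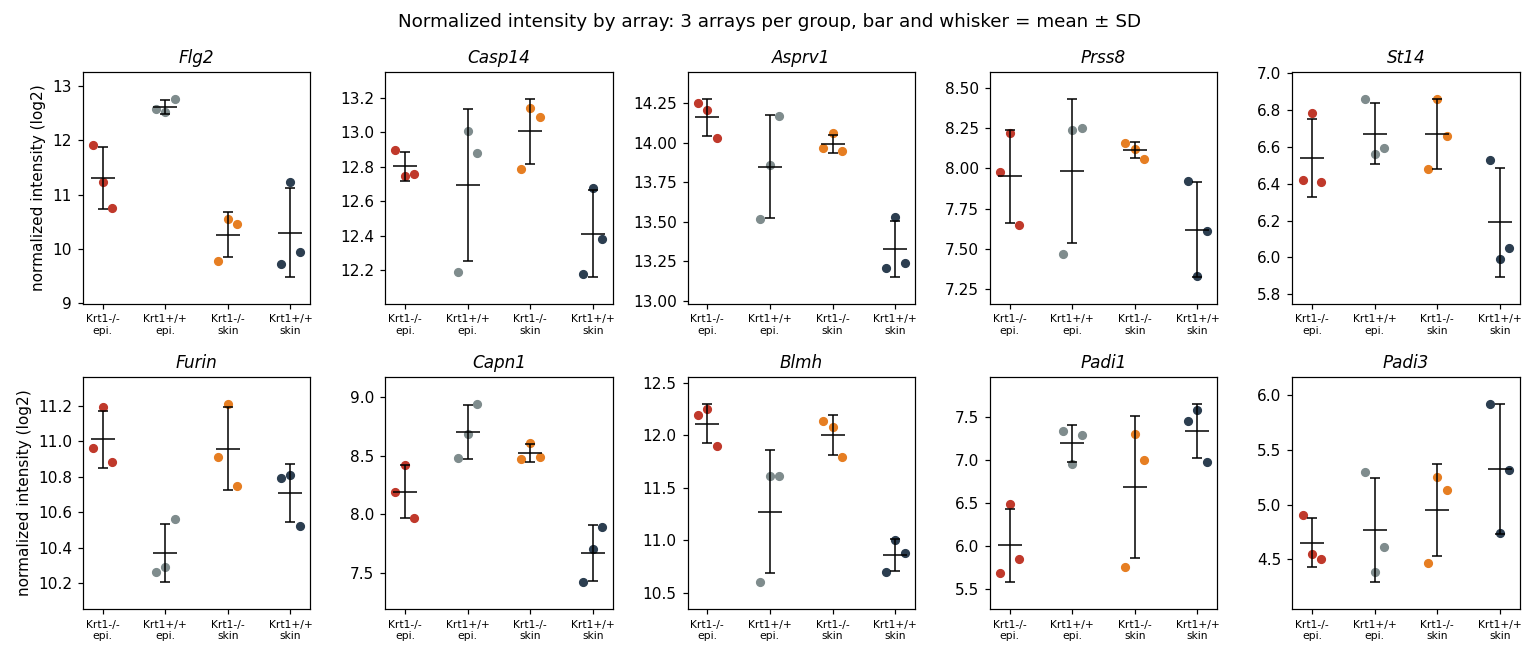
Normalized intensity (log2) of the 10 genes on each of the 12 arrays, one panel per gene with its own y axis; points are arrays, and the bar and whiskers give the mean and SD of the 3 arrays of a group. Blmh lies higher on all Krt1-/- arrays than on the Krt1+/+ arrays of the same tissue, while Capn1 lies lower on the Krt1-/- arrays in epidermis and higher in skin.

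**Figure D2:**
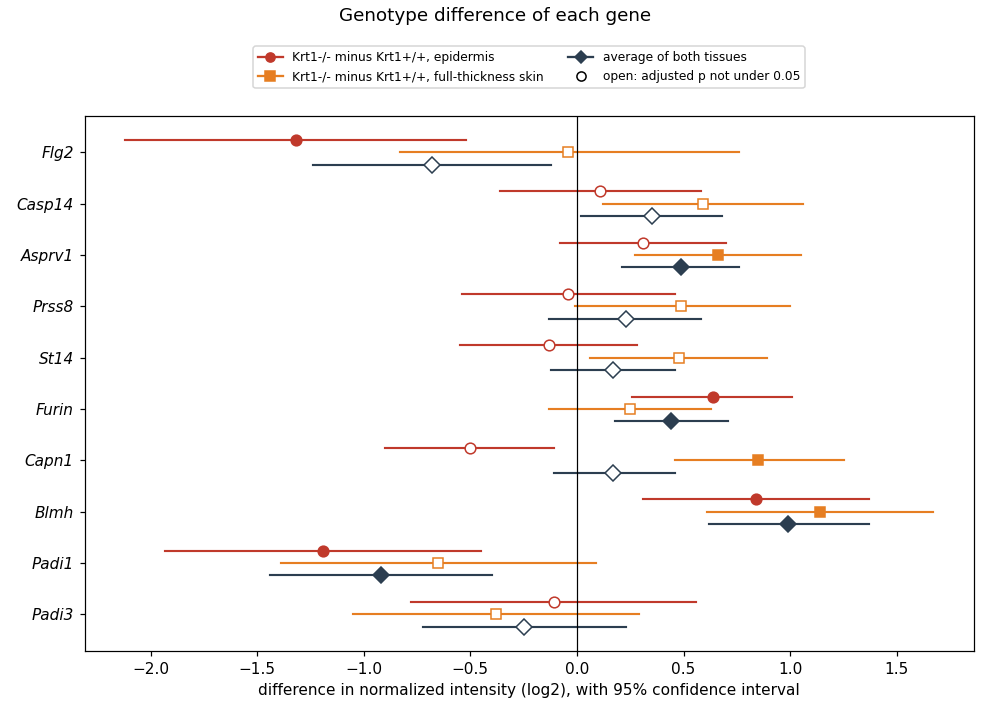
Difference in normalized intensity between Krt1-/- and Krt1+/+ tissue (log2, x axis) for each gene, with its 95% confidence interval; circles are epidermis, squares full-thickness skin and diamonds the average, filled where the adjusted p was under 0.05. Blmh is filled in all 3 comparisons, and Padi1 lies below 0 in all 3.

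Bleomycin hydrolase, encoded by Blmh, is a cysteine protease that takes part in the last step, the release of free amino acids from deiminated filaggrin. Its probe ILMN_2646878 read 5113, 5780 and 4838 raw units on the 3 arrays of Krt1-/- epidermis, against 1750, 2819 and 3165 on those of Krt1+/+ epidermis. In skin it read 5633, 3645 and 4179 units in Krt1-/- and 1947, 1634 and 1305 in Krt1+/+. The genotypes did not overlap in either tissue, and the levels of Krt1-/- epidermis and Krt1-/- skin (normalized log2 12.11 ± 0.19 and 12 ± 0.19, SD, n = 3 each) differed by less than 1 SD. After normalization the Krt1-/- signal of Blmh exceeded the Krt1+/+ signal 1.79-fold in epidermis (log2 difference 0.84, SE 0.246, adjusted p = 0.019) and 2.21-fold in skin (1.14, SE 0.246, adjusted p = 0.0036).

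On the average of both tissues Blmh was 1.99-fold higher (adjusted p = 0.0013). The difference was 0.73 between Krt1-/- skin and Krt1+/+ epidermis in the first 6 columns and 1.25 between Krt1-/- epidermis and Krt1+/+ skin in the last 6. A further, dimmer probe of Blmh, ILMN_1247502, read 109, 127 and 124 units in Krt1-/- epidermis, against 105, 94 and 103 in Krt1+/+ epidermis, where no array detected it. In skin this probe read 165, 167 and 197 units in Krt1-/- and 100, 98 and 108 in Krt1+/+. By the group means it was at least 1.58-fold higher in Krt1-/- epidermis, with the undetected group set at its detection limit and sampling error left out. The limma test there was of the difference without this bound (log2 0.78, adjusted p = 0.016 over all probes). In Krt1-/- skin the probe was 3.55-fold higher (adjusted p = 6.5e-05 over all probes). Both probes thus gave the same direction in both tissues. In epidermis the call of ILMN_2646878 was lost without Krt1+/+ replicate 1 (log2 0.51, adjusted p = 0.0633) or without Krt1-/- replicate 1 (0.8, 0.058) or 2 (0.78, 0.0673), and in a fit of the epidermis arrays alone (0.0502).

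Calpain 1, the large subunit of a calcium-dependent cysteine protease that also acts late on filaggrin, differed between genotypes with opposite signs in the 2 tissues, and passed in skin. Capn1 probe ILMN_2981550 read 348, 458 and 372 units in Krt1-/- epidermis, against 484, 424 and 564 in Krt1+/+ epidermis. On the skin arrays it read 486, 389 and 475 units in Krt1-/- and 310, 268 and 252 in Krt1+/+. Krt1-/- skin lay above every Krt1+/+ skin array, and on the normalized scale Krt1-/- epidermis lay below every Krt1+/+ epidermis array. The log2 difference was 0.85 ± 0.185 SE in skin, 1.81-fold higher in Krt1-/- (adjusted p = 0.0037), and −0.5 ± 0.185 SE in epidermis, which did not pass (adjusted p = 0.052). The genotype difference itself differed between epidermis and skin by −1.36 (adjusted p = 0.0015, where 30.9% of all genes passed, 15.8% higher and 15.1% lower, and 32.1% of probes).

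The further Capn1 probe ILMN_2767401 gave the same signs. No array of Krt1-/- epidermis detected it (96, 102 and 108 units), and all 3 of Krt1+/+ epidermis did (120, 116 and 120 units). By the group means, with sampling error left out, it was at least 1.71-fold lower in Krt1-/-. The limma test was of the difference without this bound (log2 −0.98, 95% confidence interval −1.4 to −0.57, adjusted p = 0.0017 over all probes). Skin arrays read 122, 97 and 114 units in Krt1-/- and 92, 99 and 88 in Krt1+/+ (log2 0.54, adjusted p = 0.053). Averaged over both tissues, probe ILMN_2981550 of Capn1 gave a log2 difference of 0.17 (95% confidence interval −0.11 to 0.46, adjusted p = 0.36). Since Krt1+/+ epidermis and Krt1-/- skin, which both read high, share the first 6 columns, the opposite signs cannot be told apart from a difference between the column sets. The call of Capn1 in skin held in all 17 alternatives. In epidermis the difference passed in 8 of 17: without Krt1+/+ replicate 1 (log2 −0.62, adjusted p = 0.0371) or Krt1-/- replicate 2 (−0.62, 0.044), without background correction (−0.41, 0.0286), in the authors' table (−0.41, 0.0285), under quantile normalization within each tissue (−0.53, 0.0431), with no or a stricter detection filter (−0.5, 0.0496 and 0.0482) and with the mean of both probes (−0.74, 0.00226).

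Caspase-14, a caspase largely restricted to cornifying epithelia that cuts filaggrin before its final breakdown, was detected on all 12 arrays. Casp14 probe ILMN_1241322 read 7928, 8091 and 8457 units in Krt1-/- epidermis, against 5096, 7847 and 8642 in Krt1+/+ epidermis. In skin it read 8565, 7526 and 9783 units in Krt1-/- and 4718, 4655 and 3670 in Krt1+/+. The epidermis groups overlapped and the skin groups did not. The log2 difference was 0.11 in epidermis (95% confidence interval −0.36 to 0.58, adjusted p = 0.75) and 0.59 in skin (0.12 to 1.06, adjusted p = 0.054). The skin difference passed without Krt1+/+ skin replicate 2 (log2 0.73, adjusted p = 0.0413) and, among other alternatives, under median centring (0.99, 0.00623). On the average it was 0.35 (0.02 to 0.68, adjusted p = 0.12). Within the column sets, where tissue differs too, Krt1-/- skin minus Krt1+/+ epidermis was 0.31 and Krt1-/- epidermis minus Krt1+/+ skin was 0.39. Without Krt1+/+ epidermis replicate 1, the array with the lowest Casp14 signal in that group, the epidermis difference was −0.14.

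Asprv1 encodes a retroviral-like aspartic protease of the granular layer, also called SASPase, which cuts the linker between filaggrin repeats. Probe ILMN_2699923 of Asprv1 read 19865, 20121 and 19338 units in Krt1-/- epidermis, against 13207, 14761 and 21911 in Krt1+/+ epidermis. On the skin arrays it read 18016, 14337 and 16776 units in Krt1-/- and 9301, 9171 and 6528 in Krt1+/+. The skin groups lay apart, and in epidermis the raw signal of Krt1+/+ replicate 3 exceeded every Krt1-/- array. Asprv1 rose 1.59-fold in Krt1-/- skin (log2 0.66 ± 0.181 SE, adjusted p = 0.014) and 1.4-fold on the average (log2 0.49 ± 0.128 SE, adjusted p = 0.014), and in epidermis the difference of 0.31 did not pass (adjusted p = 0.21). In 3 of the 4 groups its signal averaged 63.9% to 74.6% of the brightest probe of the array, where differences may be compressed. The call in skin was lost without Krt1+/+ skin replicate 1 (log2 0.61, adjusted p = 0.0568), while that of the average held in all 22 alternative fits.

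Furin, a proprotein convertase of the secretory pathway that can release the amino-terminal part of profilaggrin, was read by probe ILMN_3148489. It gave 2049, 2826 and 2443 units in Krt1-/- epidermis, against 1423, 1172 and 1535 in Krt1+/+ epidermis. In skin it gave 2390, 1983 and 2026 units in Krt1-/- and 2056, 1433 and 1066 in Krt1+/+. The epidermis groups lay apart and the skin groups overlapped. Furin rose 1.56-fold in Krt1-/- epidermis (log2 0.64 ± 0.175 SE, adjusted p = 0.014) and 1.36-fold on the average (adjusted p = 0.02), and in skin the difference of 0.25 did not pass (adjusted p = 0.31). The epidermis call was lost without Krt1-/- epidermis replicate 2 (log2 0.55, adjusted p = 0.0625), and that of the average without the same array (0.4, 0.0516) or without Krt1+/+ skin replicate 3 (0.4, 0.0515).

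A further Furin probe, ILMN_1252364, spread more widely. It read 199, 334 and 161 units in Krt1-/- epidermis, against 111, 96 and 127 in Krt1+/+ epidermis, and was 4.03-fold higher (adjusted p = 0.0058 over all probes). Skin arrays read 129, 110 and 105 units in Krt1-/- and 231, 123 and 100 in Krt1+/+, and the log2 difference of −0.64 did not pass (adjusted p = 0.35). One more Furin probe, ILMN_3069914, was detected on no array.

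Prostasin, a membrane-anchored serine protease encoded by Prss8, and matriptase, a transmembrane serine protease encoded by St14, act in one epidermal cascade, and loss of either in mice is known to impair profilaggrin processing. Neither gene passed in epidermis, in skin or on the average with the probe read for the gene. Without background correction and in the authors' table the probe with the highest mean was chosen anew. St14 then passed with the signs of its probe ILMN_2624209, at 0.6 in epidermis (adjusted p = 0.011) and −0.49 in skin (adjusted p = 0.0302 and 0.0301). Prss8 probe ILMN_2846148 read 308, 408 and 308 units in Krt1-/- epidermis, against 275, 330 and 374 in Krt1+/+ epidermis. In skin this probe read 409, 299 and 373 units in Krt1-/- and 395, 229 and 223 in Krt1+/+. The raw values overlapped in both tissues, while after normalization the skin groups lay apart, and the log2 differences were −0.04 in epidermis (95% confidence interval −0.54 to 0.46) and 0.49 in skin (−0.01 to 1, adjusted p = 0.13).

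The other Prss8 probe, ILMN_2740965, behaved differently. It read 458, 492 and 353 units in Krt1-/- epidermis, against 205, 237 and 285 in Krt1+/+ epidermis, with no overlap, and was 1.93-fold higher (adjusted p = 0.023 over all probes). In skin it read 236, 226 and 210 units in Krt1-/- and 313, 266 and 172 in Krt1+/+, and the log2 difference of −0.19 did not pass (adjusted p = 0.67). On the average neither Prss8 probe passed (0.23, adjusted p = 0.34, and 0.38, adjusted p = 0.22 over all probes).

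For St14 the sign of the difference depended on the probe. Probe ILMN_1255342 read 153, 194 and 172 units in Krt1-/- epidermis, against 205, 147 and 169 in Krt1+/+ epidermis (log2 −0.13, adjusted p = 0.64). On the skin arrays it read 183, 173 and 191 units in Krt1-/- and 210, 142 and 131 in Krt1+/+ (log2 0.48, adjusted p = 0.076), and passed without Krt1+/+ skin replicate 1 (0.65, 0.0346). The groups of this probe overlapped in both tissues, and those of the next one in neither after normalization. Probe ILMN_2624209 read 210, 275 and 204 units in Krt1-/- epidermis, against 150, 118 and 164 in Krt1+/+ epidermis, and was 2.1-fold higher (adjusted p = 0.0077 over all probes). Skin arrays read 146, 137 and 127 units in Krt1-/- and 235, 215 and 142 in Krt1+/+, where Krt1-/- was 1.98-fold lower (adjusted p = 0.014). For that probe Krt1-/- epidermis and Krt1+/+ skin, which share the last 6 columns, were the highest groups, and its average over both tissues was 0.04 (95% confidence interval −0.36 to 0.45). The remaining St14 probe, ILMN_2583891, was detected on 2 of 12 arrays and was not tested.

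**Figure D3:**
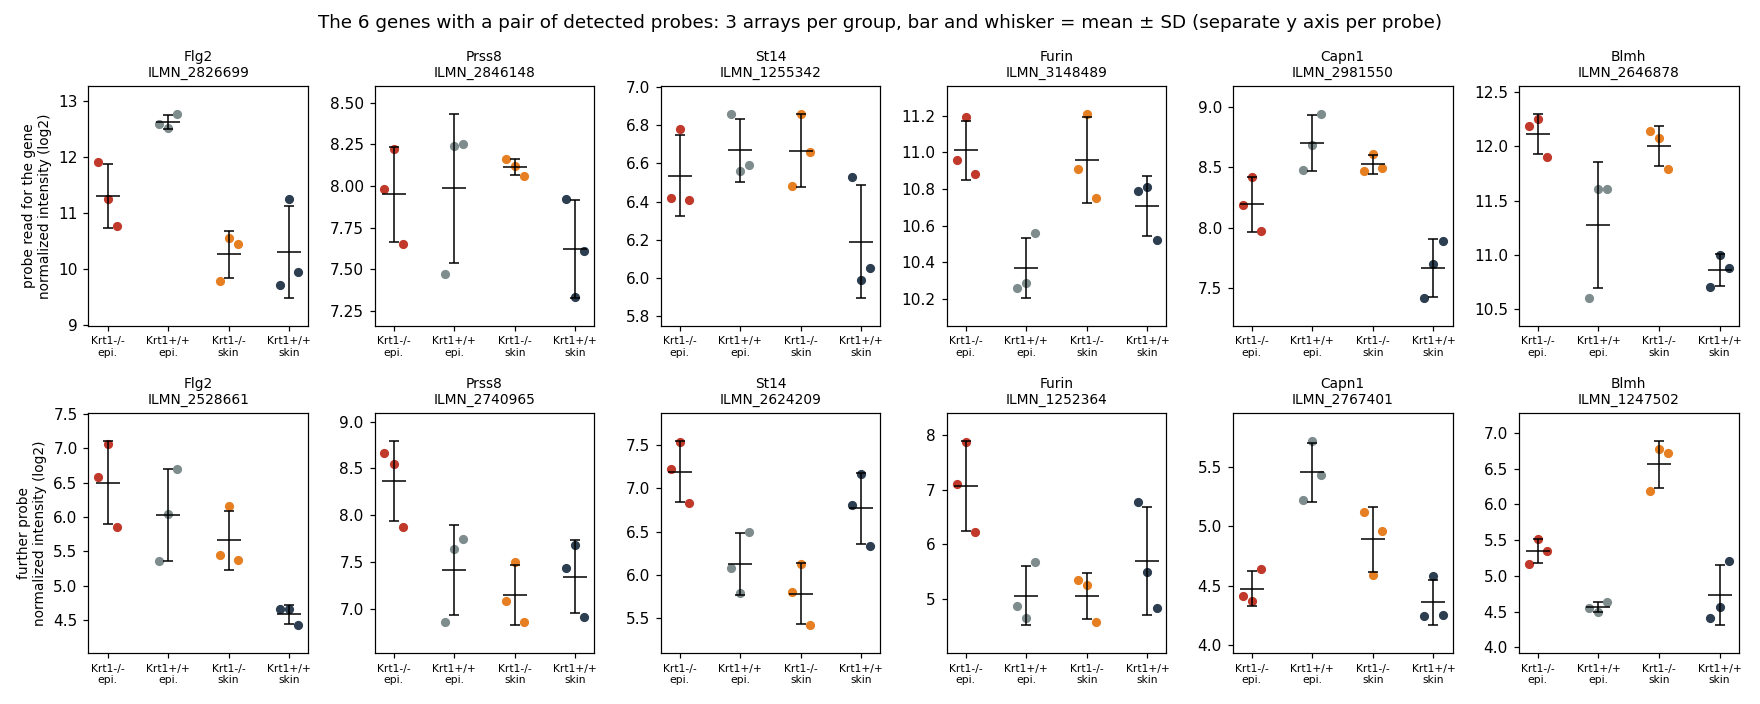
Normalized intensity (log2, y axis of its own in each panel) of both detected probes of the 6 genes that have a pair, with the probe read for the gene above and the further probe below; points are arrays, and the bar and whiskers give the mean and SD of 3 arrays. Both probes of Blmh lie higher on the Krt1-/- arrays of each tissue and both probes of Capn1 share their signs. Those of Flg2, Prss8 and St14 differ in sign in each tissue, and those of Furin in skin.

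The deiminases convert arginine to citrulline, and Padi1 and Padi3 are those known to act on filaggrin in the granular and cornified layers. They are neighbours in the RefSeq annotation of GRCm38.p6, with 0 protein-coding genes between them. Padi1 probe ILMN_2637742 read 122, 173 and 142 units in Krt1-/- epidermis, against 257, 172 and 228 in Krt1+/+ epidermis. In skin it read 143, 207 and 222 units in Krt1-/- and 315, 255 and 176 in Krt1+/+. On the raw scale both pairs of groups overlapped, in epidermis by 1 unit, and on the normalized scale the epidermis groups lay apart.

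Padi1 was 2.28-fold lower in Krt1-/- epidermis (log2 −1.19 ± 0.343 SE, adjusted p = 0.018) and 1.89-fold lower on the average (−0.92 ± 0.243 SE, adjusted p = 0.015), and the difference of −0.65 in skin did not pass (adjusted p = 0.17). Within the column sets Krt1-/- skin minus Krt1+/+ epidermis was −0.51 and Krt1-/- epidermis minus Krt1+/+ skin was −1.33. Both were lower in Krt1-/-, but each also compares different tissues. The epidermis call was lost without Krt1+/+ replicate 1 (log2 −1.12, adjusted p = 0.0527) or 3 (−1.14, 0.0504) or Krt1-/- replicate 1 (−1.03, 0.0701) or 3 (−1.11, 0.0537), while the call on the average held in all 22 alternative fits. Padi3 probe ILMN_2647300 stayed near background, at 104, 106 and 106 units in Krt1-/- epidermis, against 121, 92 and 103 in Krt1+/+ epidermis. It read 106, 110 and 118 units in Krt1-/- skin and 163, 102 and 110 in Krt1+/+ skin, was detected on 7 of 12 arrays, and gave an average difference of −0.25 (95% confidence interval −0.72 to 0.23, adjusted p = 0.45). Padi3 passed in no genotype comparison under any alternative. Between skin and epidermis it passed only without Krt1+/+ skin replicate 2, in Krt1+/+ mice (0.85, adjusted p = 0.0459) and on the average of genotypes (0.58, 0.0423).

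Filaggrin-2, the product of Flg2, is a granular layer protein built like profilaggrin, with an S100 domain followed by repeats, and is itself a substrate of calpain 1. Flg2 probe ILMN_2826699 read 4149, 2931 and 2263 units in Krt1-/- epidermis, against 6584, 5200 and 7658 in Krt1+/+ epidermis. On the skin arrays it read 1101, 1282 and 1671 units in Krt1-/- and 1072, 1880 and 734 in Krt1+/+. Every Krt1-/- epidermis array lay below every Krt1+/+ epidermis array, and the skin groups overlapped with the widest spread in Krt1+/+ skin (normalized SD 0.82, n = 3).

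Flg2 was 2.5-fold lower in Krt1-/- epidermis (log2 −1.32 ± 0.37 SE, adjusted p = 0.015), and in skin the difference was −0.04 (95% confidence interval −0.83 to 0.76, adjusted p = 0.95). The average of −0.68 did not pass (adjusted p = 0.076) unless Krt1-/- epidermis replicate 1 (−0.83, 0.0396) or Krt1+/+ skin replicate 1 (−0.82, 0.0459) was left out. Within the column sets, where tissue differs too, Krt1-/- skin minus Krt1+/+ epidermis was −2.36 and Krt1-/- epidermis minus Krt1+/+ skin was 1. The further Flg2 probe ILMN_2528661 pointed the other way. It read 163, 219 and 143 units in Krt1-/- epidermis, against 123, 125 and 177 in Krt1+/+ epidermis (log2 0.47, adjusted p = 0.33 over all probes). Skin arrays read 132, 138 and 126 units in Krt1-/- and 108, 101 and 93 in Krt1+/+, where Krt1-/- was 2.12-fold higher (adjusted p = 0.031), with the probe near background and detected on 2 of 3 Krt1+/+ skin arrays. On the average this probe passed, at 0.78 (adjusted p = 0.038). With the mean of both probes the epidermis difference was −0.42 and did not pass (adjusted p = 0.316), and it also missed the threshold without Krt1-/- epidermis replicate 3 (−1.05, 0.0652).

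Within a genotype, tissue and column set cannot be told apart, and the average over both genotypes cancels an additive offset between the sets. Between the tissues, Flg2 differed most among the probes read for the 10 genes. On the average of both genotypes it was 3.21-fold lower in skin than in epidermis (log2 −1.68 ± 0.262 SE, adjusted p = 0.00018), and its further probe gave −1.15 (adjusted p = 0.002 over all probes). In Krt1+/+ mice Flg2 was 5.01-fold, Capn1 2.04-fold and Asprv1 1.44-fold lower in skin (adjusted p = 0.00019, 5e-04 and 0.032), and none of the 10 was higher, while 41.7% of all genes passed (19.8% higher and 22% lower). In Krt1-/- mice only Flg2 of the 10 passed, 2.06-fold lower in skin (adjusted p = 0.039), against 39.5% of all genes (19.3% higher and 20.1% lower). For Capn1 the skin minus epidermis difference was 0.33 in Krt1-/- mice and −1.03 in Krt1+/+ mice, which is the same difference of effects as given above. On the average of both genotypes Asprv1 (−0.35, adjusted p = 0.043) and Capn1 (−0.35, adjusted p = 0.044) were also lower in skin, against 42.4% of all genes (18.7% higher and 23.7% lower, and 41.9% of probes). The calls of Flg2 on the average and in Krt1+/+ mice held in all alternatives. Within Krt1-/- mice Flg2 no longer passed when skin replicate 1 (−0.8, 0.135) or 3 (−1.14, 0.0569) was left out, or epidermis replicate 1 (−0.74, 0.163) or 2 (−1.07, 0.0762). That call was also lost without background correction (−0.99, 0.0553), in the authors' table (−1, 0.0553), with no detection filter (0.0829) and with a trended robust variance (0.0528). Within Krt1+/+ mice Asprv1 no longer passed when skin replicate 1 (adjusted p = 0.109) or 3 (0.0921) was left out, or epidermis replicate 2 (0.077) or 3 (0.142). On the average of both genotypes the Asprv1 call survived the loss only of Krt1-/- epidermis replicate 3, Krt1+/+ epidermis replicate 1 or Krt1+/+ skin replicate 2, and without any other array the adjusted p was 0.0558 to 0.107. That of Capn1 survived the loss only of Krt1-/- epidermis replicate 3, Krt1+/+ epidermis replicate 1 or Krt1+/+ skin replicate 3, and without any other array it was 0.0527 to 0.113. Without Krt1+/+ epidermis replicate 1, 6 of the 10 genes were lower in Krt1+/+ skin than in Krt1+/+ epidermis.

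The order of the 4 groups differed between genes. For Blmh, Asprv1, Casp14 and Furin both Krt1-/- groups stood above both Krt1+/+ groups, and for Padi1 below both. The middle neighbours, Krt1-/- skin and Krt1+/+ epidermis, were 0.14 apart for Asprv1 and 0.51 for Padi1, less than the larger SD of 0.33 and 0.82. For Flg2 the epidermis groups stood above the skin groups, with Krt1+/+ epidermis first (normalized log2 12.62 ± 0.13) and both skin groups level (10.26 ± 0.42 in Krt1-/- and 10.3 ± 0.82 in Krt1+/+, SD, n = 3). For Casp14 the gaps between neighbours in the order were 0.2, 0.11 and 0.28, against larger SDs of 0.19, 0.44 and 0.44 in the neighbouring groups. For Furin, Krt1-/- epidermis and Krt1-/- skin differed by 0.05, less than their SDs of 0.16 and 0.24.

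Across the 12 arrays, as a description only since the arrays share 4 groups and 2 column sets, Blmh and Asprv1 ran most alike among the 10 genes (Pearson r = 0.91), followed by Blmh and Casp14 (0.8). Padi1 and Blmh ran opposite (−0.68), and the neighbours Padi1 and Padi3 correlated at 0.5. Of all genes tested, those most like Blmh were Lpin3 (r = 0.974) and Cyp4f39 (0.964), and those most like Asprv1 were Cltb (0.971) and Ptk6 (0.967). Casp14 was most like Rassf5 (0.9) and Casz1 (0.878), Furin like Stc2 (0.906) and Dhx34 (0.901), and Capn1 like Ppp1r14c (0.949) and Fyttd1 (0.945). Flg2 was most like Pak3 (0.968) and Vps35 (0.961), Padi1 like Rasa1 (0.916) and Kmt5c (0.915), and Padi3 like Ap5s1 (0.923) and Gimap5 (0.913). Prss8 (Fam135b, 0.869, and Gas7, 0.849) and St14 (Eif1ad, 0.834, and Dus1l, 0.832) had the lowest such values.

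Genes around the pathway were read from 5 lists, chosen with earlier results of these data known. Among 11 tested proteases that also act on profilaggrin or in corneocytes, 2 rose in Krt1-/- epidermis and none fell, 4 rose and 1 fell in Krt1-/- skin, and 6 rose and 1 fell on the average, with medians of 0.33, 0.59 and 0.68 on the log2 scale. Over all genes the shares that passed were 31.8%, 30.7% and 24.2%, with medians of 0, −0.07 and −0.05, and the counts of every list are to be set against these. The kallikreins Klk7 and Klk5, which digest corneodesmosomes and have been linked to profilaggrin cleavage, differed by 2.74 (adjusted p = 6.7e-08) and 1.36 (0.0039) in skin, and Klk7 by −0.02 in epidermis (0.94). On the average they differed by 1.36 (adjusted p = 2.2e-06) and 0.93 (0.006). That Klk7 differed in skin alone cannot be told apart from a difference between the column sets. The cathepsin gene Ctsh differed by 1.35 in epidermis (adjusted p = 0.00052). Htra1, a secreted serine protease, was the one that fell in skin (−1.06, adjusted p = 0.0019). Of 8 inhibitors 3 rose and 2 fell in epidermis, against 31.8% of all genes, and 2 rose in skin, against 30.7%. Spink5, whose product LEKTI inhibits kallikreins, went opposite ways, by −1.83 in epidermis (adjusted p = 0.00051) and 4.13 in skin (8.3e-07), with an average of 1.15 (0.0017). In the first 6 columns Spink5 read 11.52 in Krt1+/+ epidermis and 10.76 in Krt1-/- skin (normalized log2). In the last 6 it read 9.69 in Krt1-/- epidermis and 6.63 in Krt1+/+ skin. Its opposite signs cannot be told apart from a difference between the column sets. Spint1, which encodes an inhibitor of matriptase and prostasin, differed by 0.46 on the average (adjusted p = 0.013).

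Of 11 other deiminases, calpains and caspases 3 rose and 1 fell in Krt1-/- epidermis, and 1 rose and 3 fell in Krt1-/- skin, with medians of 0.03 and −0.19. These shares lie close to the 31.8% and 30.7% of all genes. Capns1, the small regulatory subunit that pairs with calpain 1, rose by 2.2 in epidermis (adjusted p = 1.7e-05) and fell by 1.73 in skin (adjusted p = 1e-04), signs opposite to those of Capn1. Its average was 0.24 and did not pass (adjusted p = 0.3). Capns1 was high in both groups of the last 6 columns (normalized log2 9.29 in Krt1-/- epidermis and 9.49 in Krt1+/+ skin) and low in both of the first 6 (7.76 in Krt1-/- skin and 7.09 in Krt1+/+ epidermis), so genotype and column set cannot be told apart here either. Capn5 fell in both tissues (−0.68, adjusted p = 0.0076, and −0.85, adjusted p = 0.002). All 3 tested members of the S100-fused family of filaggrin rose on the average, Rptn (repetin) by 5.41 (adjusted p = 1.2e-09), Crnn (cornulin) by 1.54 (0.00025) and Tchhl1 by 0.92 (0.04). Beside them, Flg2 gave −0.68 by its brighter probe and 0.78 by the other.

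Of 9 tested genes that handle filaggrin-derived amino acids or work with prostasin and matriptase, 6 rose and 2 fell on the average, 5 rose and 2 fell in epidermis and 6 rose in skin, with medians of 0.88, 0.72 and 1.25, against 24.2%, 31.8% and 30.7% of all genes and medians of −0.05, 0 and −0.07. That list too was chosen with earlier results known. Hal, the histidase that turns histidine into urocanic acid, fell in Krt1-/- epidermis by 1.33 (adjusted p = 0.0013) and in skin differed by 0.07 (0.86), with an average of −0.63 (0.019). Arg1 (arginase) rose by 2.03 in epidermis and 2.53 in skin (adjusted p = 3.2e-05 and 5.1e-06). Scnn1b and Scnn1g, subunits of the epithelial sodium channel that prostasin activates, rose by 1.61 and 1.14 on the average (adjusted p = 0.00034 and 0.00029). Tmem79, a membrane protein of granular layer secretion, rose by 1.88 in skin (adjusted p = 1.8e-05) and by 1.05 on the average (0.00018).

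**Figure D4:**
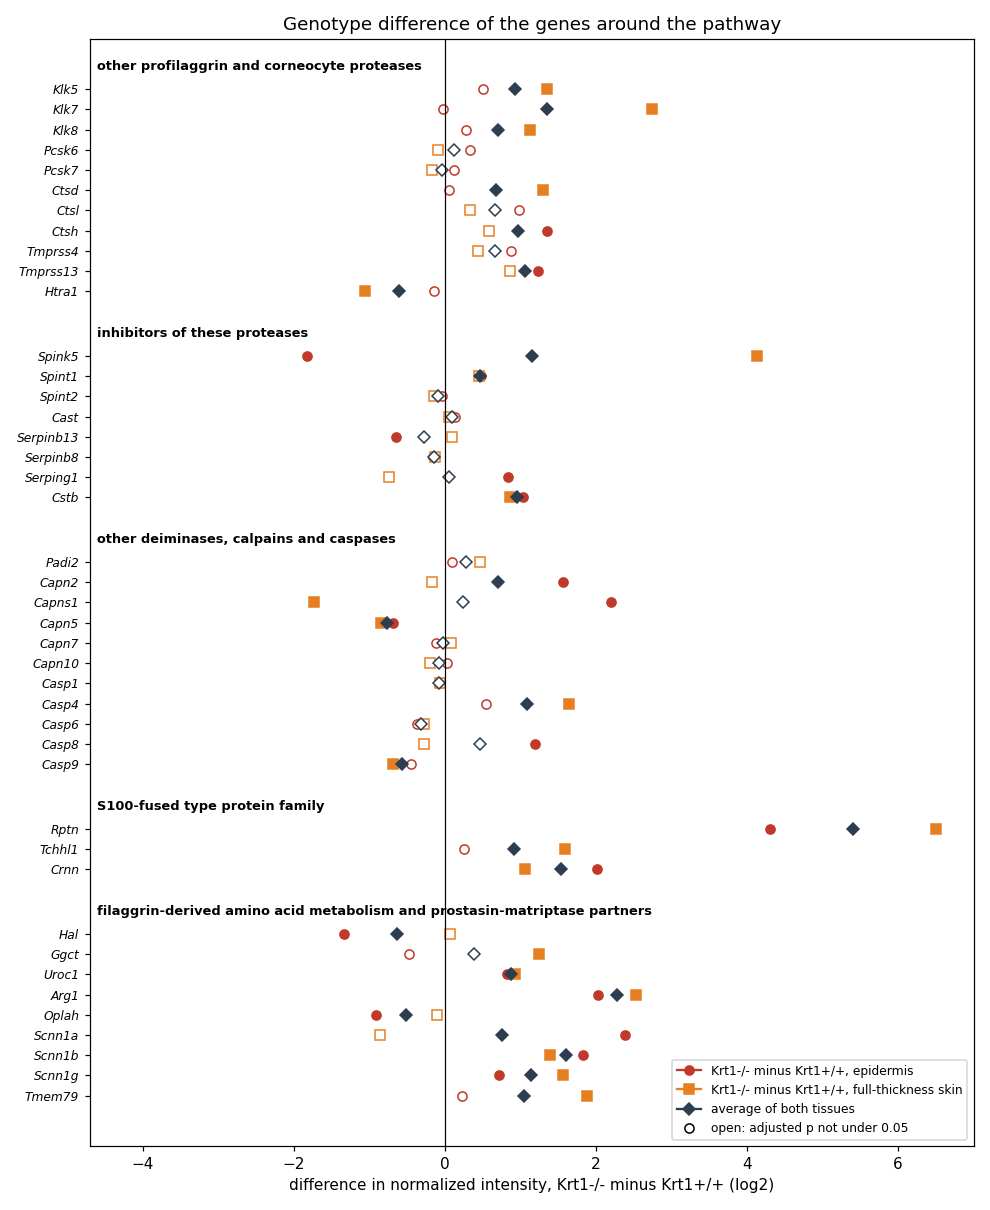
Difference in normalized intensity between Krt1-/- and Krt1+/+ tissue (log2, x axis) for the tested genes of 5 lists around profilaggrin processing; circles are epidermis, squares full-thickness skin and diamonds the average, filled where the adjusted p was under 0.05. Rptn lies farthest right at 4.31, 6.51 and 5.41, and Spink5 and Capns1 lie on opposite sides of 0 in the 2 tissues.

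Markers of the tissue were read in the same comparisons. Over all genes 31.8% passed in epidermis and 30.7% in skin, and the counts of each marker list are to be set against these. Of 6 basal layer markers 1 rose and 3 fell in Krt1-/- epidermis and 1 rose and 2 fell in Krt1-/- skin. Krt15 fell in both (−0.97, adjusted p = 0.024, and −2.34, adjusted p = 9.3e-05) and Col17a1 in epidermis (−0.72, adjusted p = 0.02). Krt5 (1.48 in epidermis and −1.4 in skin) and Itga6 (−1.71 in epidermis and 1.46 in skin) changed with opposite signs. Such opposite signs cannot be told apart from a difference between the column sets. The basal markers summed to 32699 to 34501 units in Krt1-/- epidermis, against 29804 to 42535 in Krt1+/+ epidermis, and to 20323 to 22254 in Krt1-/- skin, against 21099 to 26559 in Krt1+/+ skin. Of 8 granular layer markers, Flg2 and Casp14 among them, 1 rose and 2 fell in Krt1-/- epidermis and 1 rose and none fell in Krt1-/- skin, and their summed raw intensity was 58030 to 72642 units in Krt1-/- skin, against 46953 to 51028 in Krt1+/+ skin. In epidermis it was 67870 to 68915 units in Krt1-/- and 59118 to 85506 in Krt1+/+. Of 3 endothelial markers all fell in Krt1-/- skin, with sums of 599 to 731 units, against 925 to 1301 in Krt1+/+ skin, and Pecam1 and Cdh5 were detected on no epidermis array. The 5 mast cell markers summed to 5966 to 10766 units in Krt1-/- skin, against 8275 to 15652 in Krt1+/+ skin, and 4 of them fell, while in Krt1-/- epidermis 3 rose. Here too the opposite directions in epidermis and skin cannot be told apart from a difference between the column sets. The 4 hair follicle markers tested, of 5, summed to 13265 to 16042 units in Krt1-/- skin, against 6555 to 11871 in Krt1+/+ skin. Of these, 1 was higher and 2 were lower, with a median log2 difference of −0.76, so the sum does not stand for each of them. The part of a changed tissue make-up in the rises of Blmh, Asprv1 and Capn1 in skin, or in the changes of Blmh, Furin, Flg2 and Padi1 in epidermis, was not tested.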

How the data were processed

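Single-colour Illumina bead arrays measured RNA of 12 samples in 4 groups of 3. The deposited table gives a raw intensity and a detection p-value for each of 45281 probes, with no background subtracted and no scaling between arrays, as its values show. A second table deposited by the authors holds intensities with the same sorted values on every array, and was used as an alternative. The sources used here do not state how either table was made. The authors' table gave the same gene counts as quantile normalization without background correction, 3735 in epidermis and 3580 in skin. As alternatives these settings are therefore not independent.

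Raw intensities were background-corrected, quantile-normalized and put on the log2 scale with neqc (limma 3.58.1, R 4.3.3, offset 16, negative controls inferred from the detection p-values). Probes with a detection p under 0.05 on at least 3 arrays were kept (21712). Probe symbols came from the platform annotation, updated to GRCm38.p6 RefSeq by gene identifier (34807 probes) or accession (11), and 67 kept the annotated name. Symbols were single for 34885 probes, which alone were used, several for 18 and missing for 10378. Where a gene had several kept probes, the one with the highest mean intensity stood for it, and further probes were taken from a fit of all kept probes.

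All 12 arrays entered one limma fit of group means (8 residual degrees of freedom, prior 5.39). Contrasts were Krt1-/- minus Krt1+/+ in epidermis, in skin and averaged, their difference (epidermis minus skin), and skin minus epidermis. P-values were adjusted by Benjamini-Hochberg over 12099 genes or all kept probes, with 0.05 as threshold. The fit was tested on simulated independent normal values for the epidermis comparison with 12099 genes, where 159 of 200 shifted genes were called, as were 11 unchanged ones. The simulation held no offset between the column sets and far fewer changed genes than passed in the data. Its rates therefore show that the code runs as meant and do not carry over to the real comparison.

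A fold against a group in which no array detected the probe is a bound on the group means, with each array of that group set at the higher of its own value and the lowest detected signal. It carries no sampling error. No pair of arrays held identical values (0 of 66). The arrays' number limits the precision.

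The text names all 10 genes, Krt1, from each list around the pathway genes whose unadjusted p ranked among the 4 lowest of the list in a genotype contrast, and for each of the 10 the 2 most like genes, clone names skipped. The genes and lists were chosen with earlier results of these data known. Alternatives covered background correction, normalization, the authors' table, detection filter, probe rule, variance model, arrays in the fit, a replicate block and each array left out. No coordinates besides those of the RefSeq promoters are given, since the files name no genome build.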

Additional observations from a re-analysis of the deposited data

Results flagged for a closer look

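The genotype difference, Krt1-/- minus Krt1+/+, differed between epidermis and skin for 4 of the 14 probes of the 10 genes that were detected in every group, and for Krt1, by a test of the difference itself (limma, epidermis minus skin, log2). Over all kept probes the share was 32.1%, and over all genes 30.9%. This contrast is at the same time the difference between the 2 sets of data columns, each with an epidermis and a skin group. A genotype effect that depends on tissue therefore cannot be told apart from an offset between these sets. The further probes of Blmh and Capn1, ILMN_1247502 and ILMN_2767401, each had a group that no array detected and so have no measured difference of effects.

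For Krt1 the difference was 3.63 (adjusted p = 0.0047), since its signal was lower in Krt1-/- skin (−4.71) and the change in epidermis (−1.08) did not pass. Probe ILMN_2981550 of Capn1 gave −1.36 (adjusted p = 0.0015 over genes).

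Positive values came from the second probes of St14 (ILMN_2624209, 2.05, adjusted p = 0.00099), Furin (ILMN_1252364, 2.65, adjusted p = 0.0084) and Prss8 (ILMN_2740965, 1.15, adjusted p = 0.046). The probes read for these genes gave −0.61, 0.39 and −0.53, and none of those passed.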

How the results depend on the processing

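The averages of Blmh, Asprv1 and Padi1 kept their direction and their side of the threshold in all 22 alternatives (log2 0.82 to 1.29, 0.4 to 0.63 and −1.07 to −0.5), as did Blmh and Capn1 in skin in all 17 and the Capn1 difference between tissues in all 22 (−1.47 to −1.06). Furin on the average was lost with the mean of a gene's probes (adjusted p = 0.077). With each probe on its own, and so more features tested, 6964 passed in epidermis, 6077 in skin, 6971 for the difference between tissues, 8472 for skin against epidermis in Krt1+/+, 8888 in Krt1-/- and 9101 on the average of genotypes. Median centring left 1848 genes on the genotype average, 1127 higher and 721 lower, against 1324 and 1601; the cause was not tested.

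Of the 10 genes, 5 passed in skin and 2 for the difference without background correction and in the authors' table, 2 for the difference with the mean of probes, and for skin against epidermis in Krt1-/-, where the Flg2 call was also lost in the first 2 of these settings, 0 with no detection filter or a trended robust variance and 4 with the mean of probes.

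St14 turned its sign without background correction, in the authors' table and with the mean of probes: 0.6, 0.6 and 0.47 in epidermis, −0.49, −0.49 and −0.25 in skin, 1.08, 1.09 and 0.72 for the difference, 0.34, 0.34 and 0.08 for skin against epidermis in Krt1+/+, and −0.74, −0.75 and −0.64 in Krt1-/-. With the first 2 of these settings St14 passed in the turned direction in epidermis (adjusted p = 0.011), in skin (0.0302 and 0.0301), for the difference (0.0029) and between tissues in Krt1-/- (0.00298 and 0.00297), and there also with the mean of probes (0.0186). In those 2 settings the probe with the highest mean was chosen anew. The turned signs are those of St14 probe ILMN_2624209, at 1.07 in epidermis and −0.98 in skin in the fit of all kept probes. That probe also enters the mean of probes. The mean of probes also turned Prss8 in epidermis (0.46), for the difference (0.31) and for the Krt1-/- tissue contrast (−0.53), Flg2 in skin (0.52) and on the average (0.05), Furin in skin (−0.2) and between tissues (−0.27), Capn1 on the average (−0.03), and Blmh between tissues in Krt1-/- (0.55) and on the average (0.21). Median centring turned Prss8 in epidermis (0.06), Flg2 in skin (0.23) and Furin between tissues (−0.07), and quantile normalization within each tissue turned Furin between tissues (−0.02) and Casp14 between tissues in Krt1-/- (−0.03). Beyond the choice of probe for St14, the causes were not tested.

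Leaving out each array in turn gave 2798 to 3425 genes in epidermis, 2625 to 3494 in skin, 2266 to 3036 on the average, 3119 to 3674 for the difference, and 4026 to 4642, 3803 to 4586 and 4426 to 5162 for skin against epidermis in Krt1+/+, in Krt1-/- and on average. Of the 10 genes it left 2 to 4, 3 to 4, 3 to 5, 1 to 3, 2 to 6, 0 to 1 and 1 to 4 in the same order. It turned Casp14 (−0.14 to 0.27), Padi3 (−0.3 to 0.15) and Prss8 (−0.29 to 0.11) in epidermis, Flg2 in skin (−0.33 to 0.43), Padi3 for the difference (−0.03 to 0.56), and between tissues Furin in Krt1-/- (−0.18 to 0.05) and Casp14 on the average (−0.17 to 0.04).

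With the replicate number as a block, 3711, 3576, 2749, 3652, 4957, 4654 and 5026 genes passed in the same order of comparisons; Casp14 in skin then passed (adjusted p = 0.0396) and Asprv1 between tissues on the average did not (0.0541). Deviations of same-numbered arrays correlated over 0.1 in 2 of 18 pairs (−0.212 to 0.279), and 4 of 12 arrays correlated best with their own number. Whether same-numbered samples share an animal or a litter is not in the labels and cannot be settled from so few arrays. Signals near background limit Padi3, St14 and the further probes of Flg2, Blmh, Capn1 and Furin. Padi1 also read low, at 122 to 315 units over the 12 arrays, and its epidermis difference was −1.43 to −0.64 over 17 alternatives.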

Other observations

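Probes of one gene often disagreed in sign on these arrays. Of the 6 genes here with a pair of detected probes, the genotype difference had opposite signs in 3 in epidermis (Flg2, Prss8 and St14), in 4 in skin (Prss8, St14, Furin and Flg2) and in 2 on the average (Flg2 and Capn1). Over 4531 genes with several detected probes the share was 43.9% in epidermis, 39.2% in skin and 31.8% on the average. In none of the 6 did both probes pass in opposite directions. The lower share on the average of both tissues is given as a value only.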
